A study of Homo sapiens with 2 samples.

Results

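The iron-handling genes described here are 10 of the 23709 symbols in the deposited table. They were chosen by name, with earlier results of these data known: the ferritin chains FTL and FTH1, the transferrin receptors TFRC and TFR2, transferrin (TF), the iron exporter SLC40A1, the iron importer SLC11A2, the iron regulatory proteins ACO1 and IREB2, and HFE. Each was found once, and 9 of the 10 reached a mean of at least 1 RPKM, the read count scaled by transcript length and by library size, over both libraries, the level at which 13402 genes were taken as expressed. TF did not.

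Poly(A) RNA came from Caco-2, a human colorectal adenocarcinoma line that takes on features of small-intestinal enterocytes, grown in DMEM with fetal bovine serum and antibiotics. The mRNA library was made from total RNA, and the RNC-mRNA library from RNA bound in ribosome-nascent chain complexes, the fraction under translation. Each group is 1 library. No iron salt, chelator or other treatment is named, the iron status of the cultures is not given, and whether both RNA fractions came from 1 culture is not stated.

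Cells store iron inside a hollow shell of ferritin heavy (FTH1) and light (FTL) chains, take it up through the transferrin receptor and the divalent metal transporter SLC11A2, and release it through ferroportin (SLC40A1). The iron regulatory proteins ACO1 (IRP1) and IREB2 (IRP2) bind a short hairpin, the iron-responsive element (IRE). When iron is scarce, their binding to an IRE in the 5′ untranslated region (UTR) blocks initiation on the mRNA, whereas binding to IREs in the 3′ UTR protects the mRNA from decay. FTL, FTH1 and SLC40A1 are 5′ IRE mRNAs. TFRC and SLC11A2 are 3′ IRE mRNAs. In the intestine, SLC11A2 brings dietary iron into the cell from the lumen, and ferroportin releases it towards the blood.

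The groups of 5′ and 3′ IRE mRNAs compared here were set from textbook knowledge and not by a motif search. The hairpins are printed to show the letters of the elements. They were found in GENCODE release 29 transcripts linked to the RefSeq records of the table. The search asked for C, any 5 bases, CAGUG, 1 further base other than G, and 5 bases pairing with the first 5, with G:U pairs and at most 1 mismatch allowed. Each match is shown 5′ to 3′ with 6 bases on each side, and capitals mark the bulged C and the 6-base loop.
FTL: cucuugCuucaaCAGUGUuuggacggaac
FTH1: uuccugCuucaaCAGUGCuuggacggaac
SLC40A1: caacuuCagcuaCAGUGUuagcuaaguuu
TFRC (most 5′ match): aauuauCggaagCAGUGCcuuccauaauu
TFRC (next): cauuauCgggagCAGUGUcuuccauaaug
TFRC (next): cuguauCggagaCAGUGAucuccauaugu
TFRC (most 3′ match): aauuauCgggaaCAGUGUuucccauaauu
SLC11A2: agccauCagagcCAGUGUguuucuauggu
CDC14A: uauuuaCauguaCAGUGUuacauuauaua

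The matches of the 3 5′ IRE genes among the 10 all lay in exon 1, before the start codon. On GRCh38, the build of the reference transcripts, the FTL element is at chr19:48965335-48965363 on the plus strand, 144 nt before the start codon. The FTH1 element is at chr11:61967574-61967602 on the minus strand, 148 nt before the start codon. The 2 ferritin windows share 26 of 29 bases. The ferroportin element is at chr2:189580661-189580689 on the minus strand, 200 nt before the start codon, and shares 14 of 29 bases with that of FTL.

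The matches of the 3′ IRE mRNAs lay in the last exon. The TFRC 3′ UTR held 4 matches within exon 19, on the minus strand, between chr3:196050979-196051007 and chr3:196050463-196050491. They begin 934, 1338, 1403 and 1450 nt after the stop codon. The SLC11A2 match, in exon 16 at chr12:50988269-50988297 on the minus strand, begins 27 nt after the stop codon and is the one printed with a stem mismatch. The match of CDC14A, a phosphatase, is in exon 16 at chr1:100518583-100518611 on the plus strand. Counted without gaps, the 6 base positions next to the C and the stem could pair at 4 positions in both ferritins, at 5 in SLC40A1, at 6, 6, 5 and 6 in the TFRC matches and at 2 in SLC11A2.

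**Figure D1:**
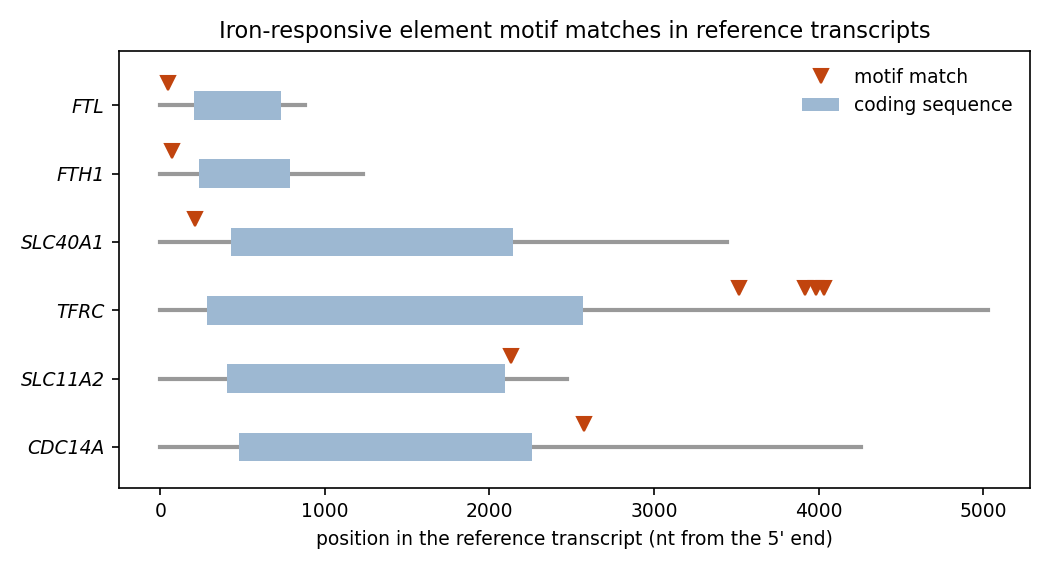
Reference transcripts drawn to scale in nucleotides from the 5′ end (horizontal axis), with the coding sequence as a box and each motif match as a triangle, for 6 mRNAs with an IRE. The matches of FTL, FTH1 and SLC40A1 sit before the start of the coding box, and those of TFRC, SLC11A2 and CDC14A after its end.

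The same letters occur elsewhere. Among 11584 expressed protein-coding (NM) records with a linked coding transcript, 55 (0.475%) held a match in the 5′ UTR and 362 (3.13%) in the 3′ UTR, and 2 held 3 or more in the 3′ UTR. Single 3′ UTR matches were also found in TF, IREB2, ACO1 and HFE. A match is a description of the letters and no proof of a working element. The ALAS2 match spans exons 1 and 2 of its transcript. No match was found in TFR2, or in EPAS1 and CDC42BPA, which are listed as IRE mRNAs from textbook knowledge, and that says only that these letters are not in those transcripts' UTRs.

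Both ferritin mRNAs were abundant, and both were lower in the RNC-mRNA library than in the mRNA library. FTL had 1405 RPKM in the mRNA library, with an exact 95% Poisson counting interval of 1380 to 1431, against 576 RPKM (interval 561 to 592) in RNC-mRNA. FTH1 had 1472 RPKM (interval 1450 to 1494) and 757 RPKM (interval 743 to 772). Neither gene's intervals overlap between the libraries, and the share of all expressed genes for which this holds was not counted. These intervals cover counting error alone, as does every interval given here. Read counts were recovered from the RPKM values and are the fewest that explain them, at least 11800 and 5563 for FTL and at least 17440 and 10312 for FTH1. Without a second culture the difference has no replicate check. In RNA pooled from many cells, a lower ribosome-bound share in every cell and a share lowered in some cells alone cannot be told apart.

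The translation ratio is log2((RNC-mRNA + 0.1) / (mRNA + 0.1)) in RPKM, and is given relative to the median of the expressed genes. It was -1.25 for FTL (counting interval -1.29 to -1.20), which is 2.37-fold below the median gene, and -0.92 for FTH1 (interval -0.96 to -0.89), 1.89-fold below. FTL was the 1 member of the 9 expressed that lay at least 2-fold below the median, a place shared by 11.8% of all expressed genes. None of the 9 lay at least 2-fold above, where 1.37% of all expressed genes lay; in either direction the share was 13.1%. FTH1 fell just short of the 2-fold line. The heavy chain mRNA was 1.05 times the light chain mRNA in the mRNA library and 1.31 times in the RNC-mRNA library, so FTL made up 48.8% of the summed ferritin RPKM in the first and 43.2% in the second. These figures leave out FTH1P3, a heavy chain pseudogene record described below. If its reads were heavy chain, the FTL share would be smaller. With FTH1P3 the sum was 3357 RPKM in mRNA and 1547 RPKM in RNC-mRNA.

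Abundant genes with a ratio this low were few. Over all 13402 expressed genes, FTL ranked 1151 and FTH1 1706 from the lowest. Of 116 genes with a mean of at least 500 RPKM, FTL had the lowest ratio and FTH1 the next, and FTL alone was at least 2-fold below the median (0.862% of the 116). The median ratio of the 116 was -0.03. Of 681 genes with a mean of at least 100 RPKM, FTL ranked 5 and FTH1 10 from the lowest, and 9 genes (1.32%) were at least 2-fold below. These level limits were chosen after the values were seen. Both ferritin mRNAs are short, 871 nt for FTL and 1229 nt for FTH1 as recovered from the RPKM values. Among 1330 expressed NM records of 700 to 1400 nt, the median ratio was 0.06, 79 lay at or below the FTL value and 118 at or below that of FTH1.

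**Figure D2:**
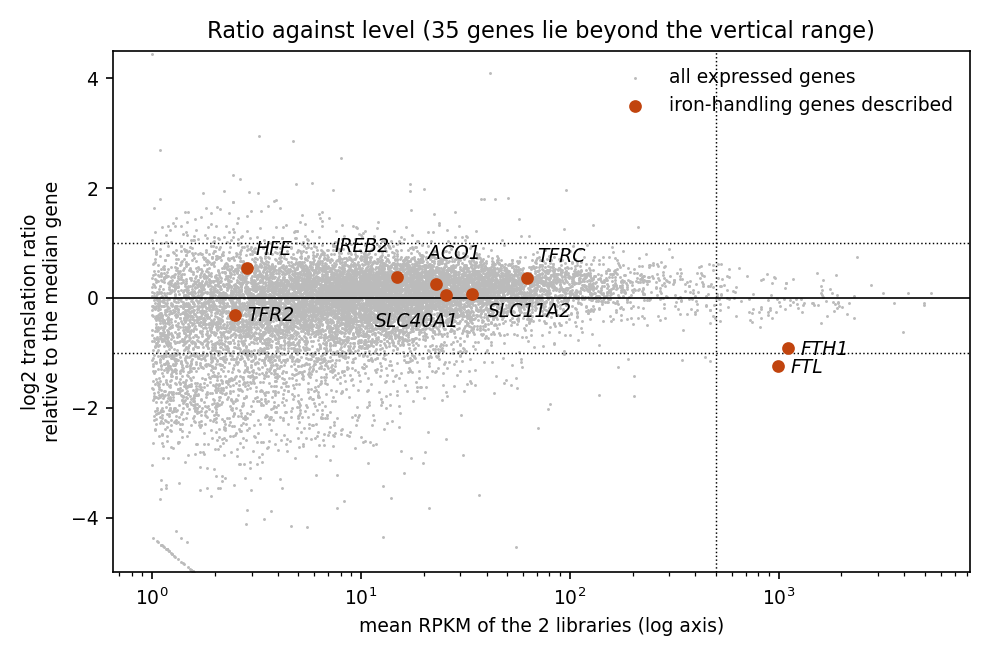
Relative log2 translation ratio (vertical axis) against the mean RPKM of both libraries (horizontal log axis) for all 13402 expressed genes in grey, with 9 iron-handling genes in orange; dotted lines mark 2-fold and 500 RPKM, and 35 genes lie beyond the vertical range. FTL (-1.25) and FTH1 (-0.92) lie below the other genes of more than 500 RPKM, and the other 7 iron-handling genes lie within 2-fold of the median.

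Other ferritin records were checked because FTH1 has many near-identical copies. FTH1P3, a processed pseudogene paired with a non-coding (NR) record, had 479 RPKM in the mRNA library against 213 RPKM in RNC-mRNA, for a ratio of -1.13 (interval -1.20 to -1.06). Its reference transcript (584 nt, shorter than the 954 nt recovered from the RPKM values) matched that of FTH1 at 530 of 552 aligned bases (96.0%), so the division of reads between these records is uncertain. With the FTH1P3 reads added to FTH1, a sum chosen after seeing the data, the FTH1 ratio was -0.96. FTLP10, a light chain pseudogene, had 0.553 and 0.0601 RPKM, and FTH1P18 stood at 0.114 RPKM in mRNA and at 0 in RNC-mRNA. The mitochondrial ferritin FTMT and FTHL17, a heavy-chain-like gene, were listed at 0 in both.

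Ferroportin, the remaining 5′ IRE gene of the 10, did not share the low ratio of the ferritins. SLC40A1 had 25.5 RPKM in the mRNA library (interval 23.8 to 27.3) against 25.6 RPKM in RNC-mRNA (interval 24.0 to 27.3). Its ratio was 0.05 (interval -0.09 to 0.18), and its intervals in the 2 libraries overlap almost fully. The table gives 1 record per gene, so transcripts with and without the element cannot be told apart.

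TFRC, which binds iron-loaded transferrin at the cell surface, was higher in the RNC-mRNA library. It had 55.6 RPKM in the mRNA library (interval 52.8 to 58.6) against 69.5 RPKM in RNC-mRNA (interval 66.5 to 72.6), a ratio of 0.36 (interval 0.26 to 0.46). The intervals of the 2 libraries do not overlap, again without a count of how many expressed genes share this. A ratio interval wholly above the median was common, at 29.6% of all expressed genes. SLC11A2, which moves ferrous iron across the apical membrane and out of endosomes, had 33.6 RPKM (interval 31.8 to 35.3) and 34.2 RPKM (interval 32.6 to 35.9). Its ratio was 0.07 (interval -0.03 to 0.17), and the intervals of the 2 libraries overlap. The SLC11A2 value belongs to a record whose length was recovered as 4424 nt, whereas the linked reference transcript has 2470 nt. SLC11A2 is known to be made with and without the element, and the table does not separate these forms.

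**Figure D3:**
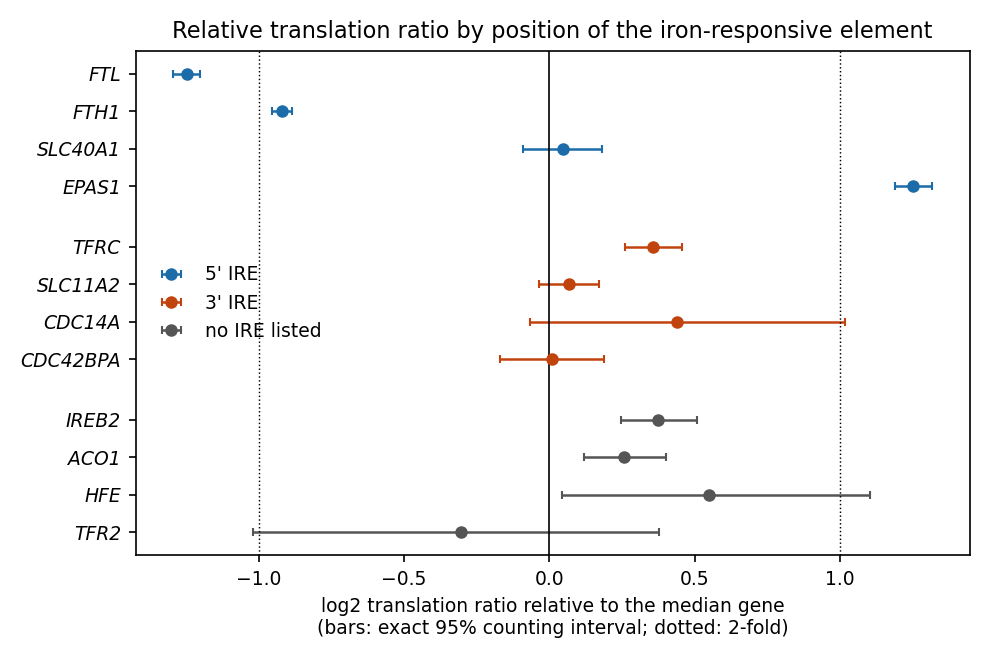
Relative log2 translation ratio (horizontal axis) of expressed genes with a 5′ IRE (blue), a 3′ IRE (orange) or no IRE listed (grey); bars are exact 95% counting intervals and dotted lines mark 2-fold. FTL and FTH1 lie at -1.25 and -0.92, EPAS1 at 1.25, and the 4 genes with a 3′ IRE between 0.01 and 0.44.

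Set against each other, the 3 genes with a 5′ IRE had a median ratio of -0.92 and the 2 with a 3′ IRE a median of 0.21, a difference of -1.13 (bounds from the members' counting intervals, -1.27 to -1.0). These bounds do not cover the choice of genes, since the difference was -0.65 without FTL, -0.81 without FTH1 and -1.30 without SLC40A1, omissions chosen after seeing the data. The genes themselves were chosen with earlier results of these data known. Both ferritins lay below both 3′ IRE genes by more than counting error, whereas SLC40A1 did so for TFRC alone. Taken 5′ minus 3′, the FTL minus TFRC difference was -1.61 (bounds -1.75 to -1.46), and the FTL minus SLC11A2 difference was -1.32 (bounds -1.46 to -1.17). The FTH1 minus TFRC difference was -1.28 (bounds -1.41 to -1.15), and the FTH1 minus SLC11A2 difference was -0.99 (bounds -1.13 to -0.85). For SLC40A1 the difference was -0.31 from TFRC (bounds -0.55 to -0.08) and -0.02 from SLC11A2 (bounds -0.26 to 0.22). In levels, the summed RPKM of FTL and FTH1, without FTH1P3, was 51.7 times that of TFRC in the mRNA library and 19.2 times in the RNC-mRNA library.

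The wider lists of IRE mRNAs held a 5′ IRE gene at the opposite end of the scale. EPAS1, the hypoxia-inducible factor HIF-2α, had 56.3 RPKM in the mRNA library against 130.7 RPKM in RNC-mRNA. Its ratio of 1.25 (interval 1.19 to 1.32) was the highest of all the iron genes listed, opposite in sign to FTL. ALAS2, the erythroid enzyme that begins haem synthesis, had 0.256 and 0.0445 RPKM, below the level of an expressed gene. Of the 3′ IRE mRNAs, CDC14A had 1.19 and 1.61 RPKM (0.44, interval -0.07 to 1.02), and the kinase CDC42BPA had 4.75 and 4.65 RPKM (0.01, interval -0.17 to 0.19). Over the whole wider lists, the 5 expressed 5′ IRE mRNAs, 4 of them described here, had a median of 0.05, the 4 3′ IRE mRNAs a median of 0.21, and the difference was -0.17.

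The 55 expressed records with a motif match in the 5′ UTR, FTL, FTH1 and SLC40A1 among them, had a median ratio of -0.03. Of these, 11 (20%) were at least 2-fold below the median, FTL included, and 0 were at least 2-fold above, where 1.37% of all expressed genes lay. Apart from FTL, the most abundant of the 11 in the mRNA library was NKTR, at 16.6 RPKM. Low ratios were rarer among abundant genes, at 1.32% with a mean of at least 100 RPKM against 11.8% of all expressed genes. The matched records were not compared with others of like level. Among all 11584 records searched, 1008 (8.70%) were at least 2-fold below, 152 were at least 2-fold above and the median was 0.04. The 362 records with a 3′ UTR match had a median of 0.06, with 27 (7.46%) at least 2-fold below.

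The mRNAs of both IRE-binding proteins were moderately expressed and had ratios above the median. IREB2, which is removed by proteasomal degradation when iron is plentiful, had 13.2 RPKM in the mRNA library (interval 12.3 to 14.2) against 16.7 RPKM in RNC-mRNA (interval 15.8 to 17.7), a ratio of 0.37 (interval 0.25 to 0.51). ACO1, which is a cytosolic aconitase when it holds an iron-sulfur cluster and an RNA-binding protein when it does not, had 21.2 RPKM (interval 19.7 to 22.8) and 24.7 RPKM (interval 23.2 to 26.3), a ratio of 0.26 (interval 0.12 to 0.40). For neither gene do the intervals of the libraries overlap. The share of all expressed genes without overlap was not counted, but 29.6% had a ratio interval wholly above the median. IREB2 stood at 0.623 times the ACO1 level in the mRNA library and 0.676 times in the RNC-mRNA library.

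The genes of systemic iron sensing were weakly expressed. HFE, an MHC class I-like protein that binds the transferrin receptor, had 2.33 RPKM in the mRNA library (interval 1.73 to 3.08) against 3.37 RPKM in RNC-mRNA (interval 2.68 to 4.18). Its ratio was 0.55 (interval 0.04 to 1.10), on at least 50 and 83 reads. TFR2, a second transferrin receptor best known in liver and erythroid cells, had 2.80 RPKM (interval 1.99 to 3.83) and 2.19 RPKM (interval 1.52 to 3.04), a ratio of -0.31 (interval -1.02 to 0.38). For both genes the intervals of the libraries overlap. TF, the plasma iron carrier, had 0.557 RPKM (interval 0.312 to 0.919) and 0.356 RPKM (interval 0.178 to 0.636) on as few as 15 and 11 reads. No difference between libraries was detectable for TF at this depth.

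Of the 9 expressed genes, the counting interval of the ratio lay wholly above the median in 4 (TFRC, IREB2, ACO1 and HFE) and wholly below it in 2 (FTL and FTH1). Over all expressed genes these shares were 29.6% and 30%. In the mRNA library the order of levels from the highest was FTH1, FTL, TFRC, SLC11A2, SLC40A1, ACO1, IREB2, TFR2, HFE and TF, and TFR2 and HFE were the neighbours whose counting intervals overlapped. In the RNC-mRNA library HFE stood above TFR2, with overlapping intervals, and the intervals of SLC40A1 and ACO1 overlapped as well. In that library FTH1 and FTL ranked 77 and 102 among all genes, against 39 and 41 in the mRNA library.

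**Figure D4:**
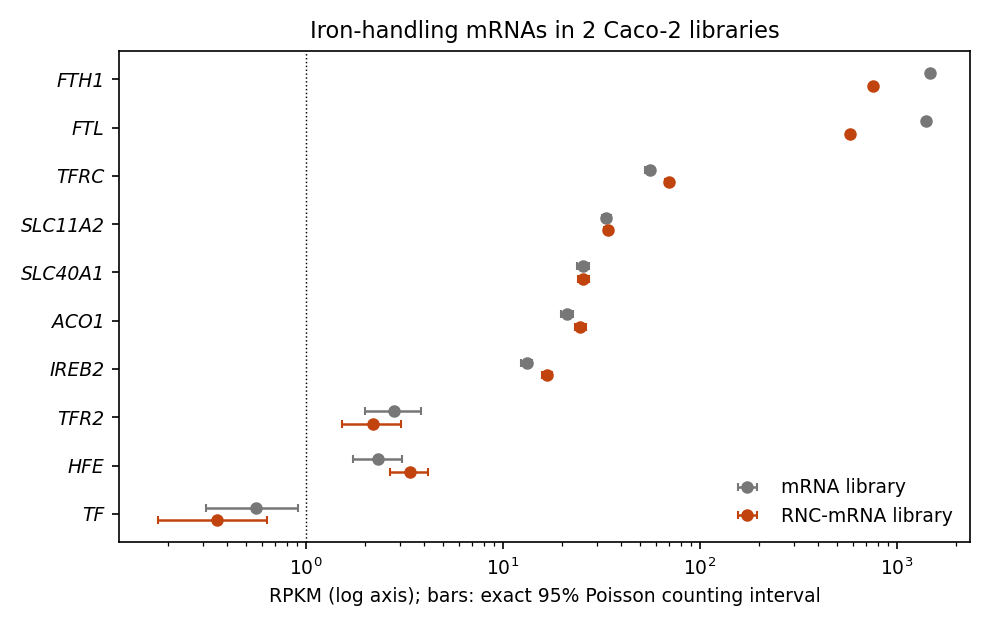
RPKM (horizontal log axis) of the 10 iron-handling genes in the mRNA library (grey) and the RNC-mRNA library (orange), with exact 95% Poisson counting intervals as bars; the dotted line marks 1 RPKM. The ferritins are the highest genes and shift left in the RNC-mRNA library, from 1472 to 757 RPKM for FTH1 and from 1405 to 576 RPKM for FTL, whereas TFRC shifts right from 55.6 to 69.5 RPKM.

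The wider pathway was read from 75 listed iron genes, all of them in the table and 67 expressed. Of the 67, 3 lay at least 2-fold below the median (FTL and SLC39A8 among them) and 1 at least 2-fold above (EPAS1), where 11.8% and 1.37% of all expressed genes lay. The median of the list was 0.08 against 0 for all expressed genes. SLC39A8, a metal importer of the ZIP family, had 24.4 and 11.4 RPKM (-1.05, interval -1.63 to -0.51).

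Ferritin's partners in storage had ratios of the opposite sign. PCBP1, an iron chaperone that delivers iron to ferritin, had 210.1 and 314.7 RPKM (0.62, interval 0.55 to 0.69), the highest of the 5 expressed storage genes. PCBP2 and NCOA4 are named after their values were seen. PCBP2, a relative of PCBP1, had a ratio of 0.30 (interval 0.26 to 0.34). NCOA4, the receptor that takes ferritin to the lysosome, had 64.9 and 87.5 RPKM (0.47, interval 0.28 to 0.66). The storage list therefore held 3 genes whose interval lay above the median and 2, the ferritin chains, whose interval lay below it. Over all expressed genes, 29.6% had an interval wholly above the median and 30% wholly below, so an interval off the median is common.

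Of 9 expressed uptake genes, 4 lay above and 5 below the median of all genes. SLC39A14, a ZIP importer of iron, had 57.1 and 69.4 RPKM (0.32), close to the TFRC values. Of the 3 expressed export genes, HEPH, the ferroxidase hephaestin that works with ferroportin at the basolateral membrane, had 18.4 and 14.1 RPKM (-0.35, interval -0.56 to -0.14). The 6 expressed regulators ran from BMP6, a ligand that induces hepcidin (3.01 and 1.63 RPKM, -0.81), to HFE. HAMP, which encodes hepcidin, was near absent, with 0.243 RPKM in mRNA on as few as 1 read and a listed 0 in RNC-mRNA.

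Of the 16 expressed haem genes, 12 lay above the median of all genes, and their own median was 0.10. BLVRB, which acts in haem breakdown, was the most abundant (94.4 and 97.5 RPKM, 0.08). The haem genes ran from PPOX, a late enzyme of haem synthesis (-0.71), to the transporter FLVCR2 (0.42, interval -0.02 to 0.89). Of 17 mitochondrial iron and iron-sulfur genes, with a median of 0.06, GLRX5 (59.4 and 71.0 RPKM, 0.29) and the scaffold ISCU (51.8 and 54.8 RPKM, 0.12) were the most abundant and BOLA3 was highest (0.68). The 7 genes of cytosolic iron-sulfur assembly had a median of 0.25. Among them, CIAO2B, under its older symbol FAM96B, was highest (70.7 and 91.5 RPKM, 0.41), CIAPIN1 was at 0.25, and CIAO3, under NARFL, was lowest (-0.51).

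**Figure D5:**
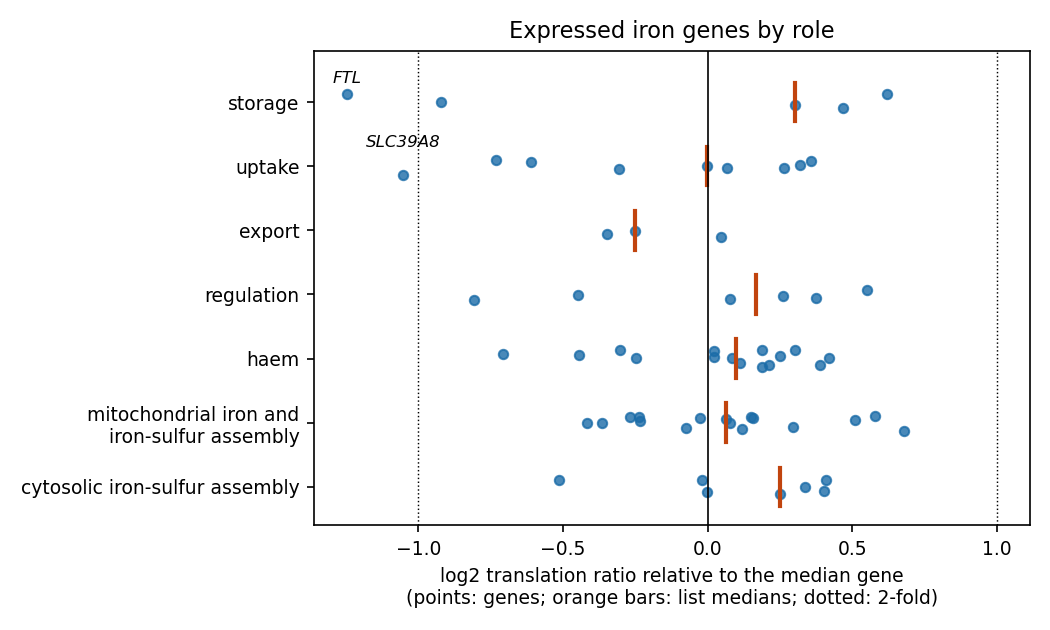
Relative log2 translation ratio (horizontal axis) of 61 iron genes by role, 1 point per gene, with the median over each whole list as an orange bar and dotted lines at 2-fold. FTL (-1.25) and SLC39A8 (-1.05) are named and lie past the lower line, and no drawn gene lies past the upper one.

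The genes nearest in level were found by the distance between log2(RPKM + 0.1) values over the 2 libraries. For FTL the nearest of all expressed genes was FTH1 (distance 0.40), followed by the ribosomal protein gene RPL23 (0.56; 975 and 661 RPKM). For FTH1 it was FTL, followed by RPL35A (0.49; 1055 and 797 RPKM). TFRC had closer neighbours, DAG1 (0.02; 55.3 and 68.5 RPKM) and PPP6R3 (0.02; 56.1 and 68.5 RPKM). With 2 libraries this is a match of levels and nothing more.

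Depth recovered from the RPKM values was 9640365 reads for mRNA and 11083303 for RNC-mRNA, and the median expressed gene had at least 258 and 280 reads. The epithelial and intestinal markers EPCAM, CDH1, KRT8, KRT18, VIL1, CDX2 and CDX1 were above 1 RPKM in the mRNA library (7 of 8), with KRT20 at 0.977 RPKM. Of 5 erythroid markers none reached 1 RPKM in the mRNA library, and HBB and HBG1 were listed at 0 in both libraries, with HBA1 at 0.540 and 1.10 RPKM. In each of the hepatic, leukocyte and fibroblast lists, 3 of 4 markers reached 1 RPKM in mRNA. Their summed levels were 557 RPKM in mRNA against 492 in RNC-mRNA for the hepatic list, 29.2 against 24.7 for leukocytes (PTPRC at 0.363 and 0.0332) and 63.8 against 35.6 for fibroblasts (THY1 at 0 and 0.0376). Their part in the iron gene values was not tested.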

How the data were processed

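The authors deposited 1 table of RPKM values for the mRNA and RNC-mRNA libraries, per the file headers, with 1 RefSeq record per symbol. Positions in the table's build, hg19 per the submitters' processing notes, were not used. The aligner, the counter and the treatment of reads matching more than 1 gene are not given in the sources used here. GENCODE release 29 transcripts are on GRCh38, and no position was converted.

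Library totals were taken where the largest number of genes of known transcript length held whole reads (2479 genes for the mRNA library against at most 24 at totals further off, 2055 against at most 52 for the RNC-mRNA library). The fewest reads explaining both values, within a relative error of 2e-07 beyond rounding to 7 digits, gave exact Clopper-Pearson (ratios) and Poisson (levels) 95% intervals. These are exact for the fewest reads. Where a gene's true reads were more, its interval is too wide, and the shares of genes with an interval off the median are then too low. The recovery was tested on simulated tables. No strand setting is recorded, so antisense reads cannot be separated. PCR reads without molecular identifiers are not independent molecules. With 1 library per group there is no test, and 2-fold from the median was a rule of size. Genes named were the 10 chosen, the listed IRE genes, ferritin-like records, the 2 nearest genes of FTL, FTH1 and TFRC, and for each iron list the 2 most abundant, the highest, the lowest and any beyond 2-fold; a few of these are not reported here, though list counts and medians include them. Members and lists were chosen with earlier results of these data known. Python 3.11.15, scipy 1.17.1 and Biopython 1.88 were used. Other pseudocounts, filters, centrings and gene sets were tried.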

Additional observations from a re-analysis of the deposited data

How the results depend on the processing

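The values were recomputed under 10 other settings, namely pseudocounts of 0.01 and 1 RPKM, a stricter filter (mean RPKM of 5 or more), no filter, no centring, centring on the upper quartile or a trimmed mean, medians over NM records or without ribosomal protein genes, and recovered reads with at least 10 in each library. Over these, and for FTH1 also with FTH1P3 added, the ratio ran from -1.33 to -1.15 for FTL, -1.0 to -0.82 for FTH1, 0.28 to 0.46 for TFRC, -0.04 to 0.15 for SLC40A1 and -0.02 to 0.17 for SLC11A2, the last pair crossing 0. No setting turned the sign of FTL, FTH1, TFRC, IREB2, ACO1 or HFE, though HFE did not pass the stricter filter and has no value there. Counting intervals were not recomputed under the other settings, and that of HFE started at only 0.04 in the main one. With a mean RPKM of at least 5, which recentres the ratios, 2 of the chosen genes (FTL and FTH1) lay at least 2-fold below the median. With no filter, 5 iron genes did (STEAP4, HAMP and ALAS2 joined and SLC39A8 left). The share of all genes at least 2-fold below is not given under either setting, so neither count can be set against it. The difference between 5′ and 3′ IRE genes, -1.13, was -0.17 with the wider lists, -1.28 without SLC11A2 and, in choices made after seeing the data, -0.65 without FTL, -0.81 without FTH1 and -1.30 without SLC40A1. No paired analysis was possible because each group has 1 library. Among the 10 chosen genes, reads were fewest for TF, TFR2 and HFE, whose intervals are the widest.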
